A study of Mus musculus with 36 samples.

Results

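The Ighv genes are the variable (V) gene segments of the mouse antibody heavy chain. Members were taken as every gene whose GRCm38 symbol starts with Ighv, which gave 185 of the 54203 genes measured. Of these, 113 are annotated as functional V genes, 70 as pseudogenes and 2 as further V entries on the opposite strand. All 185 lie on chromosome 12 (GRCm38, chr12:113572927-116010093), and 183 are on the minus strand. Estimated reads were summed per gene, and each gene was expressed as its share of all Ighv reads of a library. No read was obtained for 30 of the genes in any library.

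A B cell joins 1 V, 1 D and 1 J segment in each heavy chain locus by V(D)J recombination, and one productive rearrangement is expressed. All descendants of that cell carry the same rearranged V gene, so a population grown from many cells draws on many V genes and a population dominated by a single clone draws mainly on its own. Plasma cells transcribe the rearranged gene at very high levels. The V segment encodes most of the variable domain, and the joint with D and J forms the third complementarity determining region (CDR3), the part of an antibody that varies most between clones.

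The 36 libraries were made from plasma cells of mouse bone marrow (strain label C57/BL6), sorted as CD138+ and TACI+ with a reporter, 2000 cells per library. Cohort D held Control(D) (n = 4), Ccnd1 (cyclin D1, n = 4), Ikk2ca(D) (an Ikk2 transgene labelled ca, n = 4) and Ccnd1-Ikk2ca, which carries both (n = 6). Cohort M held Control(M) (n = 4), MMSET (a histone methyltransferase, n = 4), Ikk2ca(M) (n = 4) and MMSET-Ikk2ca with both (n = 6). The series concerns mouse models of myeloma, the malignancy of plasma cells. The promoter or Cre line of the transgenes, the genotype of the controls beyond their name, and the age of the mice are not given in the sources used here. The labels do not say that libraries of a group came from separate mice, so p-values measure only the spread between these libraries.

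Libraries held 54.03 to 97.5 M gene reads, of which 43.9% to 73.0% were immunoglobulin reads, and 1.47 to 6.32 M Ighv reads each. At this depth the 95% Wilson interval of the most abundant gene's share was at most 0.155 percentage points wide, which covers counting error only. The plasma cell markers Sdc1 (CD138), Tnfrsf13b (TACI) and Xbp1 were present in every group, with group medians of 310 to 540 CPM for Sdc1. The summed level of all 10 plasma cell markers had a lower median than control in the groups with 2 transgenes. It was 13600 CPM in Ccnd1-Ikk2ca against 76730 in Control(D), and 6676 in MMSET-Ikk2ca against 34230 in Control(M). Among groups with 1 transgene, the median was also below control for MMSET (11360 CPM), Ikk2ca(M) (12270) and Ikk2ca(D) (29990). Only the Ccnd1 median, at 76990 CPM, was not. Most of that sum is Jchain, the joining chain of IgM and IgA. Its medians were 9337 CPM in Ccnd1-Ikk2ca against 72170 in Control(D), and 3465 in MMSET-Ikk2ca against 29470 in Control(M). Mzb1 had medians of 218 against 725 and 39.7 against 604 in the same pairs. Not all members were lower by median. Sdc1, Xbp1 and Irf4 were higher in Ccnd1-Ikk2ca (540 against 366, 2385 against 2117 and 147 against 121 CPM). Sdc1, Irf4 and Slamf7 were higher in MMSET-Ikk2ca (412 against 398, 169 against 110.5 and 312 against 234). The other members were lower in each. The summed level of 10 B cell markers was 952 to 1206 CPM for Control(D), 684 to 1043 for Ccnd1 libraries, 566 to 900.1 for Ikk2ca(D) and 323 to 435 for Ccnd1-Ikk2ca, with 1 of the 10 (Cr2) at 0 in the latter. It was 686 to 1184 CPM in Control(M), 232 to 404 in MMSET, 504 to 622 in Ikk2ca(M) and 299 to 577 in MMSET-Ikk2ca. Of these 10, Fcer2a had the opposite direction, with a median above control in every transgenic group. It was 43.7 CPM in MMSET-Ikk2ca against 0.436 in Control(M), and 6.36 in Ccnd1-Ikk2ca against 0.0416 in Control(D). Bank1 had medians of 12.3 in Ccnd1-Ikk2ca and 21.4 in Ikk2ca(D) against 8.89 in Control(D), and 34.4 in Ikk2ca(M) against 31.6 in Control(M). Cd37 was at 103.5 in MMSET-Ikk2ca against 89.6 in Control(M), and Cr2 at 0.473 in Ikk2ca(D) against 0.229 in Control(D). The summed level of 7 neutrophil markers had medians of 159 CPM for Control(D), 575 for Ccnd1 libraries, 72.8 for Ikk2ca(D) and 11.2 for Ccnd1-Ikk2ca, and of 145 in Control(M), 92.04 in MMSET (with 1 library at 2301), 84.7 in Ikk2ca(M) and 4.28 in MMSET-Ikk2ca. That of 5 monocyte and macrophage markers was 110 CPM in Control(D), 34.0 in Ccnd1-Ikk2ca, 113 in Control(M) and 39.4 in MMSET-Ikk2ca. The part of these differences in the V gene results was not tested. In bulk libraries, fewer cells that use a V gene and less RNA of that gene per cell cannot be told apart.

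The V exons of 6 leading genes are shown first, because the measurement rests on telling such sequences apart. Ighv11-2, Ighv7-1, Ighv1-37, Ighv1-58 and Ighv14-3 reached the highest shares of single libraries, and Ighv1-26 led all 4 Control(D) libraries. Each line gives the last 300 bases of the V exon on the minus strand, 5′ to 3′, from the GENCODE release M21 transcripts on GRCm38. The capitals mark the codon of the conserved cysteine that precedes CDR3. They lie at chr12:114048241-114048540 (Ighv11-2), chr12:113896408-113896707 (Ighv7-1), chr12:114896238-114896537 (Ighv1-37), chr12:115312166-115312465 (Ighv1-58), chr12:114059845-114060144 (Ighv14-3) and chr12:114788372-114788671 (Ighv1-26).
Ighv11-2: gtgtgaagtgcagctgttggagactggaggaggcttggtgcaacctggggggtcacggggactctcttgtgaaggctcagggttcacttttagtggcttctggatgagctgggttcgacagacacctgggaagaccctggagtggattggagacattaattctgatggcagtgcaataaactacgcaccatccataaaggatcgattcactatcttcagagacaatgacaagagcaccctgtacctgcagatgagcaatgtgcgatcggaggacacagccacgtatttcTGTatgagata
Ighv7-1: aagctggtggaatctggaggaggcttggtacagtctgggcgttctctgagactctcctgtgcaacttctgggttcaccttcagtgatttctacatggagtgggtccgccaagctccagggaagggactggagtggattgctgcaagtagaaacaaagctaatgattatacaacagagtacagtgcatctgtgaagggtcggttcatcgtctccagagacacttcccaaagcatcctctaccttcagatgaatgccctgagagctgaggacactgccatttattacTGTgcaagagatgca
Ighv1-37: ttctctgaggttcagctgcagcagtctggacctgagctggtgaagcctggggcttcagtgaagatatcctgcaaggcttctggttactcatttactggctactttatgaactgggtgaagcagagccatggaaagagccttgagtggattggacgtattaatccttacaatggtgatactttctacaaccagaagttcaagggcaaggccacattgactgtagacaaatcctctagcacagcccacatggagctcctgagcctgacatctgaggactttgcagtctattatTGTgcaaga
Ighv1-58: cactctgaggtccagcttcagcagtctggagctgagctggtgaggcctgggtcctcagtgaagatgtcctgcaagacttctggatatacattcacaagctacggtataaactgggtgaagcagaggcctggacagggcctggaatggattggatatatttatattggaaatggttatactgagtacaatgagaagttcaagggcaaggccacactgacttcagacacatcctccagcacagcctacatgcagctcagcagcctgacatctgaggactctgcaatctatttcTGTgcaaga
Ighv14-3: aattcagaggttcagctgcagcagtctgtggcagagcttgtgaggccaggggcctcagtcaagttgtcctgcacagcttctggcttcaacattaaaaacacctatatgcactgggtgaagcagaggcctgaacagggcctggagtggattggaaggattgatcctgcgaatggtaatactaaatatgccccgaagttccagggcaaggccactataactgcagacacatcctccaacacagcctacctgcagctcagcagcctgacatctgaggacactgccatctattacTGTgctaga
Ighv1-26: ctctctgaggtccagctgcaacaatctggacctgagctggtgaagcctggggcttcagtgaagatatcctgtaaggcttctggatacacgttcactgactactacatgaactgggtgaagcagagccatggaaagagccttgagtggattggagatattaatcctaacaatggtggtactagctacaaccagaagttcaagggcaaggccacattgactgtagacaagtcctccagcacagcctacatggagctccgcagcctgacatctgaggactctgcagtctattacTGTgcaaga
The 6 exons were 62.3% to 91.5% identical to each other, the closest pair being Ighv1-37 and Ighv1-26. The motif TANTNNTGT (N is any base; searched on the coding strand), which ends in that cysteine codon, was found in 108 of 113 functional V exons (95.6%). Few bases follow the cysteine codon in the germline exon, 6 to 12 in those shown. These reference sequences therefore hold at most the start of CDR3 and not its joint with D and J. A share by V gene does not separate clones that use the same gene.

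Read assignment limits the values of close relatives. Ighv11-2 and Ighv11-1 are 98.7% identical. The 2 leading genes of a library were at least 90% identical in 3 of 36 libraries: Ighv14-3 and Ighv14-4 in MMSET 2 (95.1%), Ighv1-72 and Ighv1-50 in MMSET-Ikk2ca 2 (91.9%) and Ighv1-7 and Ighv1-4 in MMSET-Ikk2ca 3 (97.7%). Relatives were sought among the 113 functional V exons only, so pseudogenes of similar sequence are not counted in the values that follow. Across libraries, the median share of reads in functional genes at least 90% identical to the leading gene was 1.03%. The highest value was 30.6% in MMSET-Ikk2ca 2. In 7 libraries these relatives together held more reads than the leading gene. They were Control(D) 1, 3 and 4 (12.7%, 9.95% and 10.2% beside 5.96%, 7.15% and 7.57% for the leader), Ccnd1 1, 2 and 3 (13.3%, 7.15% and 6.64% beside 5.42%, 6.73% and 5.72%) and MMSET 2 (21.8% beside 14.5%). How reads of such relatives were divided was not tested, so these leading shares are uncertain, low values of Control(D) and Ccnd1 included.

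The first question was how evenly the V genes were used. In Control(D) the most abundant gene was Ighv1-26 in all 4 libraries, at 5.96%, 11.5%, 7.15% and 7.57% of Ighv reads. The effective number of genes (the inverse Simpson index, the number of equally used genes that would give the same evenness) was 37.5, 31.6, 39.1 and 38.4. No single gene therefore dominated these controls. In Ccnd1 4 different genes led, Ighv1-64 at 5.42%, Ighv5-9 at 6.73%, Ighv1-19 at 5.72% and Ighv8-12 at 13.0%. The effective number was 51.4, 43.7, 43.4 and 19.0, so 3 of the 4 Ccnd1 libraries lay above every Control(D) library and 1 lay below.

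The Ikk2ca(D) libraries were unlike each other. Ighv11-2 held 90.3% of Ighv reads in the first, Ighv1-69 16.6% in the second, Ighv1-76 9.09% in the third and Ighv1-9 25.2% in the fourth. Their effective numbers were 1.22, 14.1, 29.1 and 10.9. One library was thus close to a single V gene, and another lay within the range of leading shares in Control(D).

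In Ccnd1-Ikk2ca a different gene led each of the 6 libraries: Ighv3-6 at 35.02%, Ighv5-17 at 50.02%, Ighv1-64 at 34.5%, Ighv9-3 at 23.5%, Ighv7-1 at 72.9% and Ighv1-19 at 35.7%. The effective number had a lowest value of 1.87, a median of 5.70 and a highest of 10.9. Every leading share lay above every value of Control(D) and of Ccnd1, so the groups did not overlap.

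In cohort M the controls were less even than in cohort D. Control(M) was led by Ighv11-2 at 11.6%, Ighv9-3 at 10.5%, Ighv11-2 at 30.8% and Ighv5-17 at 13.99%, with effective numbers of 20.7, 26.3, 8.27 and 17.1. MMSET was led by Ighv5-9-1 at 17.2%, Ighv14-3 at 14.5%, Ighv9-3 at 57.2% and Ighv11-2 at 23.2%, with effective numbers of 9.50, 16.1, 2.70 and 8.58. These 2 groups overlapped, and only MMSET 3 lay above all controls. Ikk2ca(M) was led by Ighv10-3 at 33.6%, Ighv14-2 at 28.1%, Ighv8-12 at 42.0% and Ighv1-58 at 68.0%, with effective numbers of 4.66, 8.14, 4.57 and 2.12. In 3 of its 4 libraries the leading share lay above all controls.

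In MMSET-Ikk2ca the 6 libraries again had 6 different leading genes: Ighv14-3 at 62.7%, Ighv1-72 at 49.3%, Ighv1-7 at 36.03%, Ighv1-9 at 27.6%, Ighv11-2 at 22.9% and Ighv1-37 at 68.3%. The effective number had a lowest value of 2.06, a median of 4.305 and a highest of 8.48. Of the 6 leading shares 4 lay above all Control(M) values, and the other 2 lay inside their range.

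**Figure D1:**
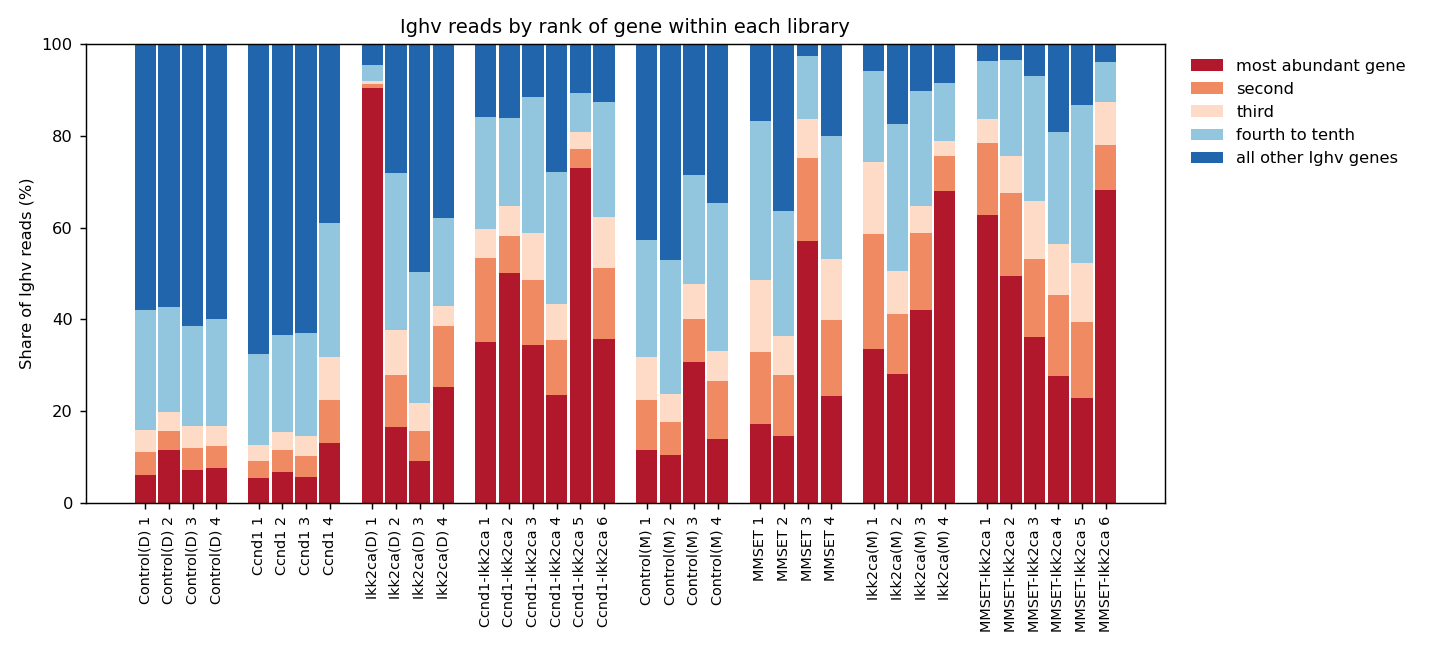
Stacked bars give, for each of the 36 libraries, the share of Ighv reads (%, from 0 to 100) held by the most abundant gene, the second, the third, ranks 4 to 10 together and all others. The dark red segment is 5.42% to 13.0% high in Control(D) and Ccnd1 and 23.5% to 72.9% in Ccnd1-Ikk2ca.

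The share of the leading gene was compared between groups by an exact two-sided permutation test of the difference in means, with Benjamini-Hochberg adjustment over 10 comparisons. It averaged 41.9% ± 17.3 (SD, n = 6) in Ccnd1-Ikk2ca and 8.04% ± 2.39 (n = 4) in Control(D), a difference of 33.9 percentage points (exact p = 0.00952, adjusted p = 0.0476). Against Ccnd1, at 7.73% ± 3.59, the difference was 34.2 points (exact p = 0.00952, adjusted p = 0.0476). The p of 0.00952 is the smallest that 6 against 4 libraries can give. Both tests use the same 6 Ccnd1-Ikk2ca libraries, and at this p each passed adjustment only because the other reached it too. With 1 library left out the adjusted p was 0.0794 to 0.0952, so neither result passed in any such repeat. There, 5 against 4 libraries can give no exact p below 0.0159 and 6 against 3 none below 0.0238. Such a repeat could pass adjustment only if further comparisons among the 10 had reached a small p as well. The differences were then 27.7 to 37.6 points against Control(D) and 28.03 to 37.9 against Ccnd1. In an alternative chosen after seeing the data, the leading gene was summed with the functional genes at least 90% identical to it, pseudogenes left out. The summed share was 17.1% to 20.9% in Control(D), 12.4% to 18.7% in Ccnd1 and 23.9% to 72.9% in Ccnd1-Ikk2ca. The differences were then 24.2 and 28.3 points (exact p = 0.00952, adjusted p = 0.0476 for each), and each again passed only because the other did.

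No other comparison of the leading share passed the adjusted threshold. Ikk2ca(D) averaged 35.3% ± 37.3, 27.3 points above Control(D) (exact p = 0.0571, adjusted p = 0.114), and 8.90 points above it without Ikk2ca(D) 1. Ikk2ca(M), at 42.9% ± 17.7, lay 26.2 points above Control(M) at 16.7% ± 9.49 (exact p = 0.0571, adjusted p = 0.114). With 4 against 4 libraries the smallest possible exact p is 0.0286. MMSET-Ikk2ca, at 44.5% ± 18.7, lay 27.8 points above Control(M) (exact p = 0.0286, adjusted p = 0.0952), and MMSET, at 28.02% ± 19.8, lay 11.3 points above it (exact p = 0.429, adjusted p = 0.612), or 1.60 points without MMSET 3. Against Control(D), Ccnd1 differed by -0.31 points (exact p = 0.8, adjusted p = 0.889).

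The groups with 2 transgenes were also compared with those with 1. Ccnd1-Ikk2ca lay 6.66 points above Ikk2ca(D) (exact p = 0.705, adjusted p = 0.881), but 2.08 points below it (difference -2.08) without Ikk2ca(D) 3 and 25.0 above it without Ikk2ca(D) 1. It was also 0.41, 3.28, 0.47 and 10.3 points above without Ikk2ca(D) 2, Ikk2ca(D) 4, Ccnd1-Ikk2ca 5 and Ccnd1-Ikk2ca 4. MMSET-Ikk2ca lay 1.55 points above Ikk2ca(M) (exact p = 0.914, adjusted p = 0.914), a difference with no settled direction. It was negative without Ikk2ca(M) 1 or 2 or MMSET-Ikk2ca 1 or 6 (-1.55, -3.39, -2.09 and -3.20), 0.58 without MMSET-Ikk2ca 2, and 9.90, 3.24, 4.93 and 5.86 without Ikk2ca(M) 4 and MMSET-Ikk2ca 3, 4 and 5. It lay 16.5 points above MMSET (exact p = 0.2, adjusted p = 0.333), or 26.2 without MMSET 3. The change from control was also compared between the cohorts, and neither difference passed. It was 6.13 points larger in Ccnd1-Ikk2ca than in MMSET-Ikk2ca (exact permutation p = 0.764), but -0.0541 without Ccnd1-Ikk2ca 5, 1.45 without Control(M) 3, 2.75 and 1.83 without MMSET-Ikk2ca 4 and 5, and 9.81, 9.77 and 10.9 without Ccnd1-Ikk2ca 4 and MMSET-Ikk2ca 1 and 6. It was 1.03 points larger in Ikk2ca(D) than in Ikk2ca(M) (exact permutation p = 0.972), and leaving out 1 library gave -17.3 (without Ikk2ca(D) 1) to 9.76 (without Ikk2ca(D) 3), with a negative value also without Control(M) 3 or Ikk2ca(M) 1 or 2.

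**Figure D2:**
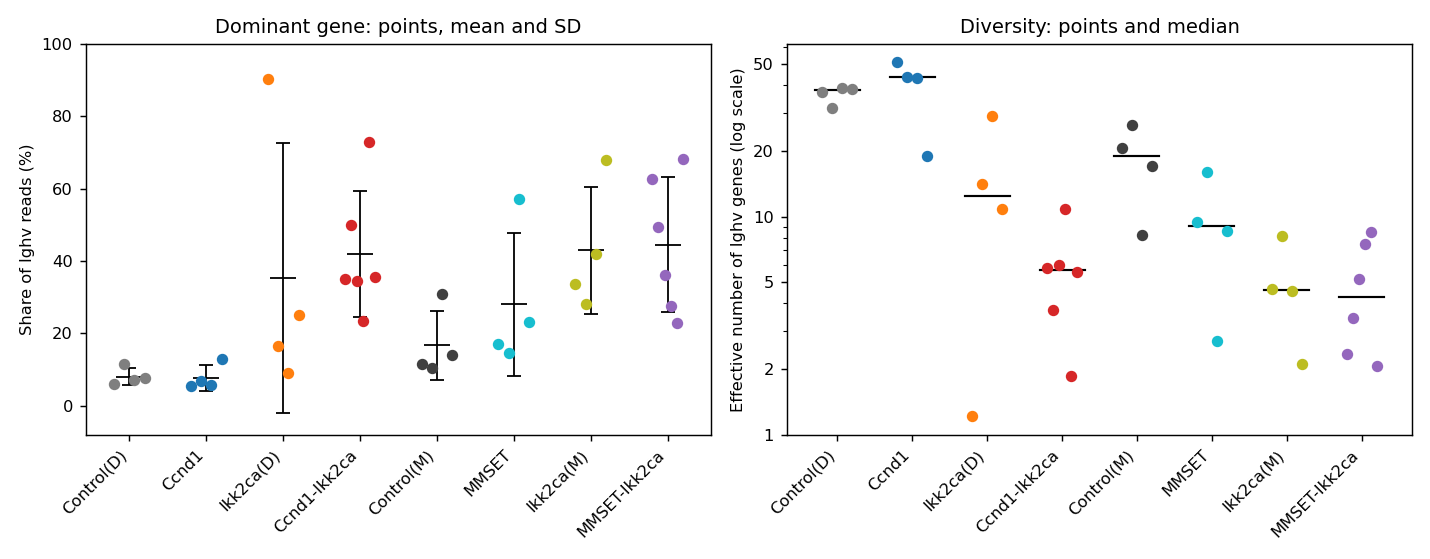
The left panel shows the share of Ighv reads (%) of the most abundant Ighv gene, 1 point per library with the group mean and SD; the SD bar of Ikk2ca(D) passes below 0 because 1 of its 4 values is 90.3%. The right panel shows the effective number of Ighv genes on a log scale with the group median, which is 38.0 in Control(D), 5.70 in Ccnd1-Ikk2ca, 18.9 in Control(M) and 4.305 in MMSET-Ikk2ca.

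Other measures of evenness are given as a description. The number of genes with at least 1% of Ighv reads had a median of 36.5 for Control(D), 34 for Ccnd1, 19 for Ikk2ca(D) and 14.5 for Ccnd1-Ikk2ca. In cohort M it was 20.5 in Control(M), 16 in MMSET, and 10.5 in both Ikk2ca(M) and MMSET-Ikk2ca. The 3 leading genes together held 15.9% to 19.8% of Ighv reads in Control(D) and 43.4% to 80.9% in Ccnd1-Ikk2ca. They held 23.7% to 47.7% in Control(M) and 52.3% to 87.4% in MMSET-Ikk2ca.

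The total of Ighv reads was compared in the same way. It was 5.54% ± 0.395 of all gene reads in Control(D) and 5.13% ± 0.591 in Ccnd1-Ikk2ca (difference -0.42 points, exact p = 0.229, adjusted p = 0.683). In MMSET-Ikk2ca it was 3.62% ± 1.04 against 4.76% ± 0.506 in Control(M) (difference -1.14, exact p = 0.0952, adjusted p = 0.476). None of the 10 comparisons passed, at adjusted p values of 0.476 to 0.971, and at unadjusted p none was under 0.05 either.

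The identity of the leading gene was not shared within the transgenic groups. Across the 36 libraries 21 genes led at least 1 library, 12 of them exactly 1, and none was a pseudogene. Ighv11-2 led 5 libraries, Ighv1-26 4 and Ighv9-3 3. The overlap of usage between 2 libraries (the sum over genes of the smaller share, where 100% is identical usage) had a median of 74.9% within Control(D), with a range of 72.1% to 78.4%. The median was 58.2% within Ccnd1, 21.6% within Ikk2ca(D) and 11.9% within Ccnd1-Ikk2ca. It was 49.4% within Control(M), 18.5% within MMSET, 8.21% within Ikk2ca(M) and 7.85% within MMSET-Ikk2ca. Pairs share libraries, so these overlaps carry no test.

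**Figure D3:**
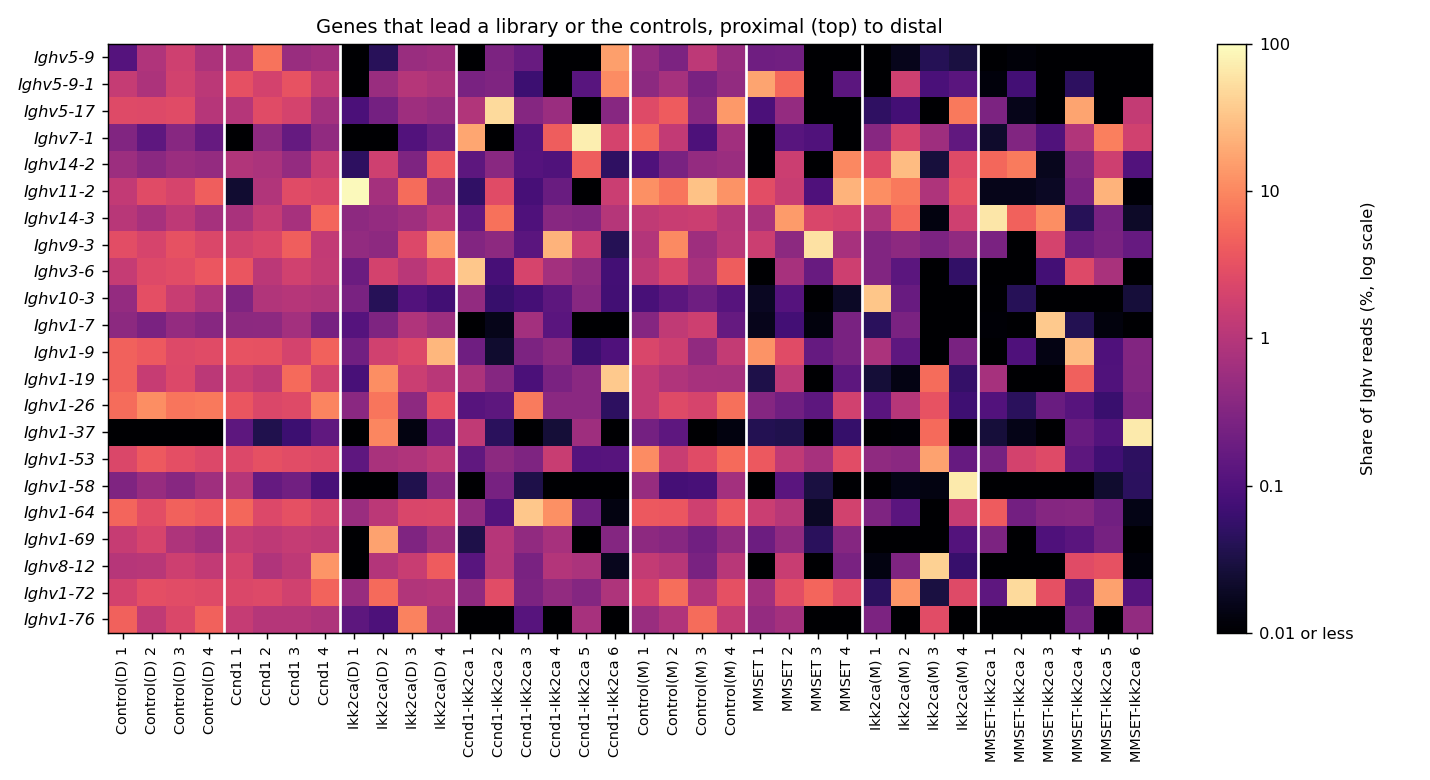
Each row is 1 of the 22 genes that lead a library or are among the 5 most used in the controls, ordered by position from the D-proximal end, and each column is a library; color gives the share of Ighv reads (%) on a log scale, with 0.01% or less in black. Bright cells stand mostly alone in their row within a group of Ikk2ca libraries, while Control(D) columns are similar to each other.

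The genes that the controls used most were ranked by their mean share. Over the 8 controls the 5 highest were Ighv11-2 (9.07%), Ighv1-26 (5.57%), Ighv1-53 (4.05%), Ighv1-64 (3.77%) and Ighv5-17 (3.73%). The order of the leading pair rests on Control(M) 3: without it Ighv11-2 averaged 5.97% and Ighv1-26 6.07%. It also differed between the cohorts, with means of 2.62% for Ighv11-2 and 8.04% for Ighv1-26 in Control(D), and of 15.5% and 3.10% in Control(M). Ighv11-2 itself separated the cohorts' controls, with 1.32%, 2.73%, 2.06% and 4.39% in Control(D) and 11.6%, 7.09%, 30.8% and 12.7% in Control(M). These 2 sets of values do not overlap, and this comparison was chosen after its values were seen and not tested.

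Ighv11-2 is known as a V gene of B-1a cells, which pair it with the light chain V gene Igkv14-126 in antibodies to phosphatidylcholine. In Ikk2ca(D) 1, where Ighv11-2 held 90.3% of Ighv reads, Igkv14-126 held 95.8% of the light chain V reads and Ighm, the IgM constant gene, 95.3% of the heavy chain constant reads. Igkv14-126 held 22.4% in Control(M) 3 and 20.7% in MMSET 4, where Ighv11-2 held 30.8% and 23.2%. It held 12.4% in Control(M) 1 and 13.5% in MMSET-Ikk2ca 5. The pair of genes was thus high in the same libraries, of both control and transgenic groups.

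Heavy and light chain leaders were high together in general. Of the 15 libraries whose leading Ighv gene held at least 30%, 14 had a light chain V gene at 30% or more, as did 1 of the other 21. In Ccnd1-Ikk2ca 5 Ighv7-1 held 72.9%, Igkv15-103 50.1% of light chain V reads and Ighm 91.5% of constant reads. In MMSET-Ikk2ca 6 Ighv1-37 held 68.3%, Igkv5-39 66.1% and Ighg2b, an IgG constant gene, 72.5%. In Ikk2ca(M) 3 Ighv8-12 held 42.0% and Igkv6-20 80.5%. In Ccnd1-Ikk2ca 2 Ighv5-17 held 50.02% and Igha, the IgA constant gene, 58.6%. Among those 15 libraries the most abundant constant gene was Ighm in 11, Ighg2b in 3 and Igha in 1.

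Single genes were tested with edgeR's quasi-likelihood test over all genes of a cohort, and a gene was called at a Benjamini-Hochberg adjusted p below 0.05. The comparisons with a control within a cohort share that control. The low-count filter kept 127 of the 185 Ighv genes for cohort D, and 119 for cohort M. In Ccnd1-Ikk2ca 3 Ighv genes were higher and 16 lower than in Control(D), where 11.1% of all 15323 tested genes were called, 5.83% higher and 5.32% lower. The median log2 fold change of the tested Ighv genes was -1.39, against 0.02 over all genes. A higher leading share leaves a smaller part of the Ighv total for other Ighv genes, so lower calls in any comparison are not independent of it. The count of called Ighv genes fell to 10 without Control(D) 2 and 12 without Control(D) 3. DESeq2 called 46, 11 higher and 35 lower, and 2789 of all 16519 genes that it gave an adjusted p.

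Among the called genes, Ighv1-9 held 4.79%, 4.06%, 2.47% and 2.73% in Control(D) and at most 0.408% in Ccnd1-Ikk2ca, with a lowest value of 0.0224%. Its log2 fold change was -4.59 (SE 1.06, edgeR adjusted p = 0.0143). Ighv1-53 held 2.31%, 3.99%, 3.05% and 2.38% in Control(D) and 0.112% to 1.51% in Ccnd1-Ikk2ca (log2 fold change -3.17, SE 0.74, edgeR adjusted p = 0.0141). Both genes lay lower in every Ccnd1-Ikk2ca library than in any control. Ighv1-74 held 0.543%, 1.78%, 0.964% and 0.249% in Control(D) and 0.00138% to 0.0555% in Ccnd1-Ikk2ca (log2 fold change -5.98, SE 1.02, edgeR adjusted p = 0.00247). Ighv10-3 held 0.470% to 2.97% in Control(D) and 0.0604% to 0.454% in Ccnd1-Ikk2ca (log2 fold change -3.34, SE 0.71, edgeR adjusted p = 0.00881). Ighv5-2, Ighv8-13 and the pseudogene Ighv1-30 were also called lower, at no more than 0.0226% in any of these libraries.

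The 3 genes called higher in Ccnd1-Ikk2ca were the pseudogenes Ighv3-2 and Ighv4-2 and the functional gene Ighv2-9. Without the low-count filter edgeR called 0 higher. Ighv2-9 held 0.212%, 0.193%, 0.0591% and 0.0939% in Control(D) and 0.0360% to 8.15% in Ccnd1-Ikk2ca (log2 fold change 3.75, SE 1.14, edgeR adjusted p = 0.0488). Its groups overlapped. Ighv3-2 held 0.00146% to 0.00271% in Control(D) and 0.0340% to 7.37% in Ccnd1-Ikk2ca, and Ighv4-2 held 0.00274% to 0.00478% and 0.00366% to 2.65%. In Ccnd1, Ighv3-2 held 0.305% to 1.49% and Ighv4-2 0.184% to 0.762%, all above the Control(D) libraries, though neither was called there.

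In MMSET-Ikk2ca 13 Ighv genes were lower and 0 higher than in Control(M), where 6.91% of all 15416 tested genes were called, 3.5% higher and 3.41% lower. No Ighv gene was higher at an unadjusted p under 0.05. DESeq2 called 29 lower and 0 higher, and 2196 of all 15926 genes that it gave an adjusted p. With Ighv reads as library size edgeR called 7, all lower, and likewise 7 with the replicate block. The median log2 fold change was -2.52 over the tested Ighv genes and 0.01 over all genes. The count was 7 without Control(M) 1 or MMSET-Ikk2ca 1, and 8 without MMSET-Ikk2ca 2, 3 or 6.

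Ighv1-26, the leading gene of every Control(D) library, held 1.31%, 2.58%, 2.08% and 6.43% in Control(M) and 0.0438% to 0.271% in MMSET-Ikk2ca. Its groups did not overlap (log2 fold change -5.24, SE 1.11, edgeR adjusted p = 0.0116). Ighv5-9 held 0.481%, 0.283%, 1.19% and 0.519% in Control(M) and no more than 0.0120% in MMSET-Ikk2ca (log2 fold change -7.72, SE 1.73, edgeR adjusted p = 0.0163). Ighv3-5 held 0.0223% to 0.322% in Control(M), Ighv8-2 up to 0.0591%, and Ighv1-49 up to 0.197%. All 3 were called lower, with values in MMSET-Ikk2ca at or near 0.

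Groups with 1 transgene had few or no called Ighv genes. For Ccnd1 against Control(D) edgeR called 0 (14 higher and 1 lower at an unadjusted p under 0.05), and 0.00653% of all genes. DESeq2 called 9 there, and 139 of all 17701 genes that it gave an adjusted p. For Ikk2ca(D) against Control(D) edgeR called 0 (18 higher and 7 lower unadjusted), and 0.437% of all genes, 0.398% higher and 0.0392% lower. DESeq2 called 14, and 687 of all 16110 genes. Without Control(D) 4 edgeR had 1 call in each of these comparisons, and Ikk2ca(D) also had 1 without any 1 of its own libraries. MMSET and Ikk2ca(M) against Control(M) had 1 called gene each, with 0.649% of all genes called in each comparison (0.474% higher and 0.175% lower in MMSET, 0.506% and 0.143% in Ikk2ca(M)). DESeq2 called 5 in MMSET and 9 in Ikk2ca(M), and 755 and 652 of all 16293 genes. The gene called by edgeR was Ighv1-49, lower in both, and it was lost without MMSET 2, 3 or 4 and without Ikk2ca(M) 2 or 3. In Control(M) it held 0.197% and 0.110% in libraries 1 and 3, but had only 14 and 47 reads in libraries 2 and 4.

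Genes that make or modify the heavy chain were counted beside them. None of the 8 heavy chain constant genes was called in 5 of the 6 comparisons with control, and Ighg2c, an IgG constant gene, was lower in Ikk2ca(M), at 417 ± 332 CPM against 17003 ± 11003 in Control(M) (n = 4 each, edgeR adjusted p = 0.0268); the call was lost without Control(M) 2 or Ikk2ca(M) 1, 2 or 3. None of the 13 tested of 17 recombination and hypermutation genes was called in any of the 6. Over all tested genes, 0.00653% to 0.649% were called in groups with 1 transgene. The share was 11.1% in Ccnd1-Ikk2ca and 6.91% in MMSET-Ikk2ca. At such shares, counts of 0 in lists this short say little about these genes. Of 3 surrogate light chain genes 1 was tested, and Vpreb1 was called lower in Ccnd1-Ikk2ca, where it was at 0 in every library, against 0.143 ± 0.165 CPM in Control(D) (edgeR adjusted p = 0.0492). This call was lost without Control(D) 1, 2 or 3 or any Ccnd1-Ikk2ca library.

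V families, groups of related Ighv genes, were compared next. The largest, Ighv1, has 93 members and held 61.9% to 70.4% of Ighv reads in Control(D), 41.9% to 48.7% in Control(M) and 10.3% to 66.5% in Ccnd1-Ikk2ca. Its mean was 66.3% ± 3.50 in Control(D) and 32.0% ± 20.9 in Ccnd1-Ikk2ca (exact p = 0.0286, adjusted p = 0.211). Ighv6 averaged 2.05% ± 0.772 in Control(D) against 0.192% ± 0.106 in Ccnd1-Ikk2ca, and 4.64% ± 1.496 in Control(M) against 0.508% ± 0.503 in MMSET-Ikk2ca (exact p = 0.00952 and adjusted p = 0.211 for each). Its groups did not overlap in either cohort, with 1.64% to 3.21% against 0.0741% to 0.367% and 2.94% to 5.95% against 0.00419% to 1.28%. Family shares are parts of the same Ighv total, so they are not independent of the leading share. Of 96 tests, 16 families in 6 comparisons, 0 passed after adjustment and 13 had an unadjusted exact p under 0.05, 4 of them in Ccnd1-Ikk2ca against Control(D). The design left little room to pass: at least 19 tests would have had to reach the smallest exact p of 0.00952, which only the 32 tests of 6 against 4 libraries can give, and 3 of these did. Ighv16, with 0 reads in every library, supplied 6 of the 96 tests.

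**Figure D4:**
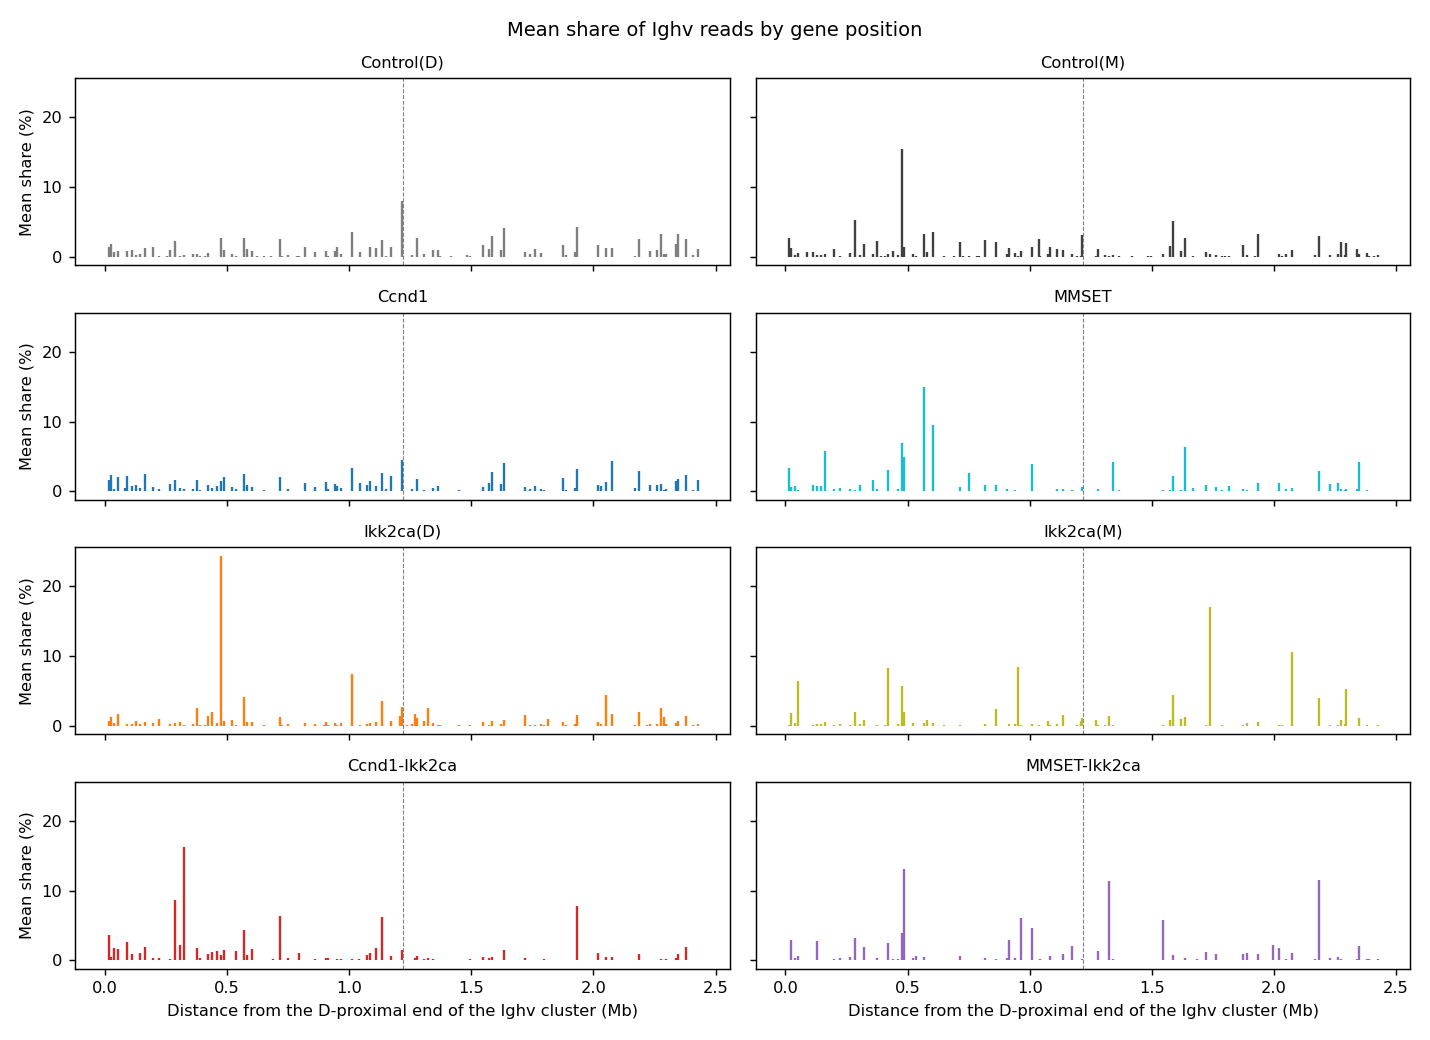
Each panel shows the mean share of Ighv reads (%) in 1 group against the distance of the gene from the D-proximal end of the Ighv cluster (Mb); the dashed line is the midpoint of the 2.44 Mb locus. The tallest bars lie at different positions in different groups, on both sides of the midpoint.

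Usage by position was spread over the cluster. The D-proximal side of the midpoint, with 108 of the 185 genes, held 48.2% to 54.3% of Ighv reads in Control(D) and 60.2% to 71.3% in Control(M). It held 45.3% to 95.7% in Ccnd1-Ikk2ca and 8.32% to 93.2% in MMSET-Ikk2ca. The leading genes lie on both sides: Ighv1-37, at 68.3% of Ighv reads in MMSET-Ikk2ca 6, lies beyond the midpoint, and Ighv7-1, at 72.9% in Ccnd1-Ikk2ca 5, lies before it.

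Most Ighv genes were rarely used by these cells. In 86 genes the share reached 1% in at least 1 library, in 34 it reached 10%, and 69 stayed under 0.1% in every library. A share of 1% or more in at least 18 of the 36 libraries was found for 9 genes. Ighv genes other than functional V genes are the 70 pseudogenes and the 2 further V entries. Together they held 0.0735% to 0.0953% of Ighv reads in Control(D) and 1.63% to 3.33% in Ccnd1. Their share was 0.0883% to 15.4% in Ikk2ca(D) and 0.381% to 8.57% in Ccnd1-Ikk2ca. It was 0.0988% to 1.59% in MMSET, 0.242% to 6.06% in Ikk2ca(M) and 0.152% to 2.52% in MMSET-Ikk2ca. In Control(M) they held 3.11% and 3.92% in libraries 1 and 2 but 0.0193% and 0.0347% in libraries 3 and 4.

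**Figure D5:**
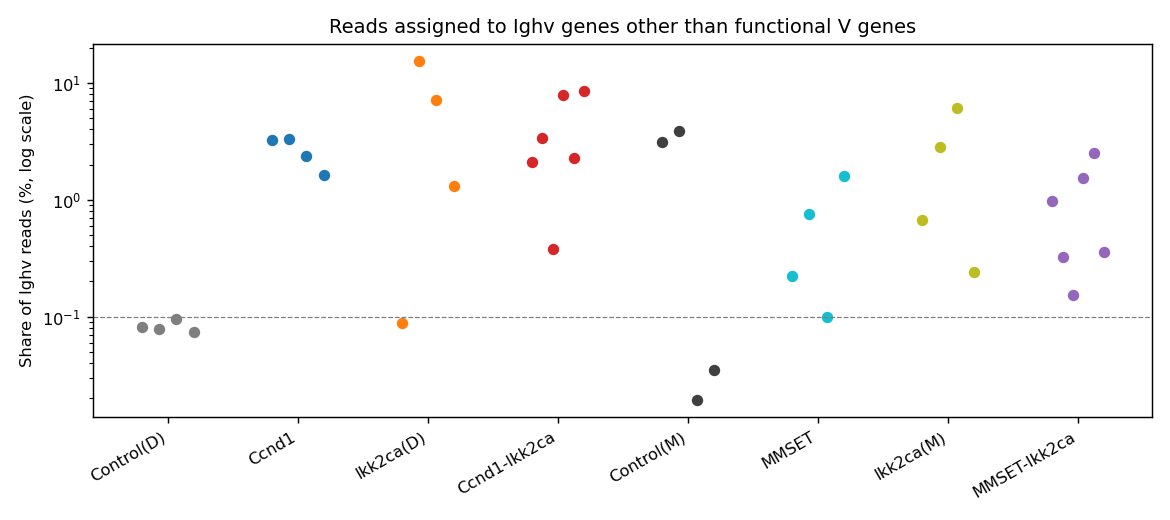
Points give the share of Ighv reads (%, log scale) assigned to Ighv genes other than functional V genes, 1 per library in 8 groups; the dashed line is 0.1%. All 4 Control(D) libraries and 2 of 4 Control(M) libraries lie under the line, and all 6 Ccnd1-Ikk2ca libraries lie above it.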

How the data were processed

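RNA of 36 libraries of sorted plasma cells was primed with oligo-dT, copied with template switching and tagged with Nextera XT, per the labels' protocols, which describe no molecular identifiers. Per the submitters' processing notes, bcl2fastq 2.20.0.422, Salmon 1.3.0 and DESeq2 1.32.0 were used on GRCm38. The deposited tables hold each transcript's estimated counts, which the authors' Salmon run produced and which need not be whole, per the file headers. They also hold TPM, which the authors' run scaled by length within each library, per the file headers.

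Counts of 139960 of 140825 transcripts were summed to genes with GENCODE release 21 on GRCm38. Strand was not used, so reads of antisense or overlapping genes may be mixed. Sums, rounded to whole numbers, entered edgeR 4.0.16 (TMM, filterByExpr, robust quasi-likelihood, 18 libraries per cohort) in R 4.3.3, with DESeq2 1.42.0 as an alternative. SE was derived from the size of the log2 fold change and the test's F. Shares were compared by exact permutation, where the two-sided p is double the smaller one-sided p, as scipy 1.17.1 computes it. A first calculation counted absolute differences; after its results were seen the test was changed to this convention, and the first is kept as an alternative. Members, lists and tests were chosen with earlier results of these data known. Named genes were the leader of each library, the 5 most used in the controls, and up to 5 called genes per direction and comparison. The test code was tested on simulated data. Python 3.11.15, numpy 2.4.6, pandas 2.3.3, edlib 1.3.9.post1 and matplotlib 3.10.9 were used.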

Additional observations from a re-analysis of the deposited data

Results flagged for a closer look

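Within each group of 4 or 6 libraries, a library was singled out where its gap to the nearest other value, divided by the group's range, exceeded Dixon's 95% value. The check covered 5 library measures and the shares of 32 named genes, leaving out a gene where every library of the group was under 0.1%, which made 246 checks. The check was first run on the 5 measures, where it singled out none, then on the 5 most used control genes, and was widened to all named genes after those results were seen. It singled out 81 values, 78 of them high and 3 low, all of them shares of single genes. Dixon's value is passed by chance about 1 in 20 times only where values are normally distributed. That was not shown for these shares, so the 81 cannot be set against that rate. A gene named because it led a library is likely to stand apart in that library by that choice alone. Control(D) had 1 such value and Control(M) 4, against 19 in Ccnd1-Ikk2ca and 15 in MMSET-Ikk2ca. No explanation was tested.

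In Ccnd1 3 the share that stood apart was Ighv1-19 at 5.72%. Ccnd1 1 stood apart for Ighv1-58 at 0.976%, Ighv1-74 at 2.18% and, on the low side, Ighv10-3 at 0.300%. Ccnd1 4 stood apart for Ighv14-3 at 5.20% and Ighv8-12 at 13.0%. Ccnd1 2 stood apart for Ighv5-9 at 6.73% and Ighv1-49 at 0.169%.

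Ikk2ca(D) 2 stood apart for Ighv1-19 at 11.3%, Ighv1-37 at 9.91%, Ighv1-69 at 16.6% and Ighv1-72 at 5.65%. Ikk2ca(D) 4 stood apart for Ighv1-58 at 0.358%, Ighv1-9 at 25.2% and Ighv9-3 at 13.5%. In Ikk2ca(D) 3 the share that stood apart was Ighv1-76 at 9.09%. In Ikk2ca(D) 1 the share that stood apart was Ighv11-2 at 90.3%.

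Ccnd1-Ikk2ca 6 stood apart for Ighv1-19 at 35.7%, Ighv5-9 at 15.5%, Ighv5-9-1 at 11.1% and Ighv3-2 at 7.37%. Ccnd1-Ikk2ca 3 stood apart for Ighv1-26 at 7.99%, Ighv1-64 at 34.5%, Ighv1-7 at 0.662% and Ighv2-9 at 8.15%. Ccnd1-Ikk2ca 4 stood apart for Ighv1-53 at 1.51%, Ighv9-3 at 23.5% and Ighv3-5 at 0.764%. Ccnd1-Ikk2ca 2 stood apart for Ighv1-58 at 0.248%, Ighv1-72 at 2.80%, Ighv14-3 at 6.69% and Ighv5-17 at 50.02%. Ccnd1-Ikk2ca 5 stood apart for Ighv1-76 at 0.740%, Ighv14-2 at 4.32% and Ighv7-1 at 72.9%. In Ccnd1-Ikk2ca 1 the share that stood apart was Ighv3-6 at 35.02%.

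MMSET 2 stood apart for Ighv1-19 at 1.19%, Ighv10-3 at 0.113%, Ighv14-3 at 14.5%, Ighv1-74 at 3.63% and Ighv8-13 at 0.153%. MMSET 4 stood apart for Ighv1-26 at 1.83%, Ighv11-2 at 23.2% and Ighv14-2 at 10.3%. MMSET 3 stood apart for Ighv9-3 at 57.2% and Ighv3-5 at 0.134%. In MMSET 1 the share that stood apart was Ighv2-9 at 3.09%.

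Ikk2ca(M) 3 stood apart for Ighv1-19 at 5.91%, Ighv1-37 at 5.78%, Ighv1-53 at 16.8%, Ighv1-76 at 2.77% and Ighv8-12 at 42.0%. Ikk2ca(M) 4 stood apart for Ighv1-58 at 68.0%, Ighv1-69 at 0.111%, Ighv5-17 at 7.62% and Ighv3-5 at 0.126%. Ikk2ca(M) 2 stood apart for Ighv1-7 at 0.270%, Ighv14-2 at 28.1%, Ighv5-9-1 at 1.77% and Ighv1-74 at 0.479%. In Ikk2ca(M) 1 the share that stood apart was Ighv10-3 at 33.6%.

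MMSET-Ikk2ca 4 stood apart for Ighv1-19 at 4.58%, Ighv1-9 at 27.6%, Ighv3-6 at 2.50%, Ighv5-17 at 17.7%, Ighv2-9 at 0.350% and Ighv1-74 at 1.66%. In MMSET-Ikk2ca 6 the share that stood apart was Ighv1-37 at 68.3%. MMSET-Ikk2ca 1 stood apart for Ighv1-64 at 4.15% and Ighv14-3 at 62.7%. MMSET-Ikk2ca 3 stood apart for Ighv1-7 at 36.03% and Ighv9-3 at 2.05%. In MMSET-Ikk2ca 2 the share that stood apart was Ighv1-72 at 49.3%. MMSET-Ikk2ca 5 stood apart for Ighv11-2 at 22.9%, Ighv7-1 at 8.51% and Ighv3-2 at 0.895%.

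Control(M) 3 stood apart for Ighv1-76 at 5.84% and, on the low side, Ighv1-64 at 1.72%. In Control(M) 2 the share that stood apart was Ighv9-3 at 10.5%. In Control(M) 1 the share that stood apart was Ighv2-9 at 0.927%.

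In Control(D) 4 the share that stood apart was Ighv5-17, on the low side at 1.014%.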

How the results depend on the processing

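Over 186 recomputed values, leaving libraries out aside, 148 kept their direction and side of the threshold (counts: within 1.5 times). DESeq2 size factors, scaling on non-immunoglobulin genes, functional genes alone and, as alternatives chosen after seeing the data, the leading gene with its close relatives and p counted on the absolute difference (p = 0.00476, adjusted p = 0.0238 for Ccnd1-Ikk2ca against Control(D) and against Ccnd1, by exact permutation) changed none of theirs. The cause of the other changes was not tested.

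With the most abundant family in place of the gene, Ccnd1-Ikk2ca differed by -15.0 points from Control(D), -16.2 from Ikk2ca(D) and -6.49 from Ccnd1. With TPM, the leading share differed by -3.38 for MMSET-Ikk2ca against Ikk2ca(M), the cohort difference of Ikk2ca by -4.31, and the Ighv total by -0.0763 for Ccnd1, -0.159 for MMSET and 0.18 for Ccnd1-Ikk2ca against Ikk2ca(D). The Ighv total per immunoglobulin reads differed by -0.13 for Ccnd1, -0.239 for MMSET and 0.0816 for MMSET-Ikk2ca against Ikk2ca(M). Per heavy chain constant reads it differed by -1.21 for Ccnd1, and for MMSET-Ikk2ca by 2.04 against Control(M), 2.95 against Ikk2ca(M) and 1.97 against MMSET.

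Called Ighv genes in Ccnd1, Ikk2ca(D), Ccnd1-Ikk2ca, MMSET, Ikk2ca(M) and MMSET-Ikk2ca against control numbered 9, 14, 46, 5, 9 and 29 with DESeq2. Its calls over all genes numbered 139, 687, 2789, 755, 652 and 2196 in the same order. With Ighv reads as library size the called Ighv genes numbered 1 in Ccnd1, 7 in Ikk2ca(D), 0 in MMSET and in Ikk2ca(M), and 7 in MMSET-Ikk2ca. Fits of only the groups compared gave 4 in Ccnd1, 1 in Ikk2ca(D) and 2 in Ikk2ca(M), and no filter gave 2 in Ikk2ca(D). DESeq2 called 2 related genes in Ccnd1-Ikk2ca and 1 in MMSET.

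Same-numbered libraries of a transgenic group and its control did not deviate together (correlations -0.0319 to 0.0663). The labels give only the number, and low correlations do not exclude a pairing. With the replicate block, edgeR called 7 Ighv genes in MMSET-Ikk2ca, and 0, 0 and 1 related genes in Ccnd1-Ikk2ca, Ikk2ca(M) and MMSET-Ikk2ca. The block over replicates 1 to 4 gave 27.7 points against Control(D) and 28.04 against Ccnd1 (exact p = 0.125, the smallest 4 pairs allow; adjusted p = 0.208).

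With each library left out in turn, the leading share differed by -2.08 to 0.83 for Ccnd1 against Control(D), 27.7 to 37.6 for Ccnd1-Ikk2ca against Control(D), -2.08 to 25.0 for Ccnd1-Ikk2ca against Ikk2ca(D), 28.03 to 37.9 for Ccnd1-Ikk2ca against Ccnd1, -3.39 to 9.90 for MMSET-Ikk2ca against Ikk2ca(M). Likewise, the Ighv total differed by -0.19 to 0.43 for Ccnd1 against Control(D), -0.39 to 0.51 for Ikk2ca(D) against Control(D), -0.20 to 0.57 for MMSET against Control(M). Likewise, the difference between cohorts was -0.0541 to 10.9 for Ccnd1-Ikk2ca and MMSET-Ikk2ca, -17.3 to 9.76 for Ikk2ca(D) and Ikk2ca(M). Likewise, called Ighv genes numbered 0 to 1 for Ccnd1 against Control(D), 0 to 1 for Ikk2ca(D) against Control(D), 10 to 18 for Ccnd1-Ikk2ca against Control(D), 0 to 1 for MMSET against Control(M), 0 to 1 for Ikk2ca(M) against Control(M), 7 to 18 for MMSET-Ikk2ca against Control(M). Likewise, called related genes numbered 0 to 1 for Ccnd1-Ikk2ca against Control(D), 0 to 1 for Ikk2ca(M) against Control(M).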

Other observations

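The 4 genes here were read in some libraries and nearly absent from others, a pattern picked out after their values were seen. Ighv1-49 held at least 0.05% of Ighv reads in 8 of 36 libraries, all 4 of Control(D) (0.0888% to 0.518%), Control(M) 1 and 3 (0.197% and 0.110%), Ccnd1 2 (0.169%) and Ikk2ca(D) 3 (0.0888%), and had under 10 reads in 22. The pseudogene Ighv4-2 held at most 0.00478% in Control(D) and up to 5.33% in Ikk2ca(D) 3. The pseudogene Ighv3-2 held at most 0.00271% in Control(D) and up to 7.37% in Ccnd1-Ikk2ca 6. The pseudogene Ighv1-14 held at most 0.0224% in Control(D) and up to 4.06% in Ccnd1-Ikk2ca 4. All Ighv genes other than functional V genes together were under 0.1% in 8 libraries and at 0.152% or more in the other 28. In Control(D) all 4 libraries were on the low side, and in Ccnd1, Ccnd1-Ikk2ca, Ikk2ca(M) and MMSET-Ikk2ca none was. The leading share was 7.73% ± 3.59 in Ccnd1, and Ccnd1-Ikk2ca lay 34.2 points above it. Whether libraries differ in their Igh haplotype was not tested, and for Control(D) such a difference and the genotype cannot be told apart. The part of such a difference in the leading shares was not tested in any group.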
